A study of Mus musculus with 23 samples.

Results

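The genes described here encode the mitochondrial respiratory chain and ATP synthase, in the livers of weanling mice whose mothers did or did not have diet-induced metabolic syndrome (MetS). Members were the rows of the count table whose mouse symbol starts with Nduf, Uqcr, Cox4, Cox5, Cox6, Cox7, Cox8, Atp5, mt-Nd, mt-Co, mt-Cytb or mt-Atp, together with Sdha, Sdhb, Sdhc and Sdhd. This rule matched 117 of 49585 genes, and 93 of them reached the required mean of 10 counts and were tested, among 14466 genes in all. Of these 93, 86 are nuclear and 7 lie on the mitochondrial genome. The nuclear members comprise 35 complex I subunits, 8 complex I assembly factors, 4 subunits of complex II, 8 of complex III, 12 of complex IV (Ndufa4 among them), 2 proteins related to complex IV (Cox7a2l and Ndufa4l2) and 17 ATP synthase genes. The mitochondrial members are 5 complex I subunits, 1 of complex III and 1 of complex IV. The other 24 matched genes fell below the minimum, 11 of them annotated as processed pseudogenes.

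Polyadenylated liver RNA was sequenced from 23 C57Bl/6J pups, with 1 library per animal. In each group name the part before the hyphen gives the prenatal exposure and the part after it gives the postnatal exposure. Ct-Ct pups (6) were never exposed, MetS-Ct pups (6) were exposed before birth only, Ct-MetS pups (6) were exposed by nursing only, and MetS-MetS pups (5) were exposed at both times. Dams ate a diet of 10% or 45% fat from week 3 of age for 7 or 17 weeks and were mated to males on the control diet. Litters were set to 5 pups and every pup, Ct-Ct included, was cross-fostered at birth. Livers were taken at postnatal day 21, except for 1 MetS-Ct animal taken at day 22. The diet period of each pup's dam and the litter of each pup were not given in the sources used here, so the p-values treat pups as independent and may be too small.

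The respiratory chain passes electrons from NADH (through complex I) and succinate (through complex II) to coenzyme Q, then through complex III and cytochrome c to complex IV, which reduces oxygen. Complexes I, III and IV pump protons across the inner membrane, and ATP synthase uses that gradient to make ATP. Complex II is encoded wholly in the nucleus, whereas the other complexes join nuclear subunits to a core made from mitochondrial DNA. Hepatocytes are rich in mitochondria and rely on this pathway for gluconeogenesis, urea synthesis and fat oxidation.

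The count table covers the mitochondrial genome unevenly. Of its 13 protein genes, 7 had mean counts per library from 4499 (mt-Nd6) to 306300 (mt-Co1). The other 6, mt-Co2, mt-Atp8, mt-Atp6, mt-Co3, mt-Nd3 and mt-Nd4l, lie side by side between mt-Co1 and mt-Nd4. Each had at most 13 counts over all 23 libraries, and mt-Atp8 was listed at 0. For 5 of these 6, 98.99% to 99.9% of the transcript was found in a pseudogene transcript of chromosome 1 at 99% identity or more. For mt-Atp8 the share was 21.1%. Only annotated transcripts were searched, so a nuclear copy outside them would not be counted. The same share was 31.3% for mt-Co1, 63.6% for mt-Nd4 and 0 for mt-Nd1, mt-Nd2, mt-Nd5, mt-Nd6 and mt-Cytb. The chromosome 1 copies themselves held few counts, with means per library from 2.61 to 87.4. The counting of reads with several matches was not given in the sources used here, and its part in the low counts was not tested. The following 60-base stretch of mt-Co2, the gene of the copper-binding core subunit of complex IV, is shown because it makes the sharing visible. It is set beside its copies on chromosome 1 (Gm28661) and chromosome 2 (Gm13341), as annotated on GRCm38, and capitals mark the bases that differ from mt-Co2:
mt-Co2, chrM:7453-7512, plus strand: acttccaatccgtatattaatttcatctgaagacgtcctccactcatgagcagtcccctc
Gm28661, chr1:24615066-24615125, minus strand: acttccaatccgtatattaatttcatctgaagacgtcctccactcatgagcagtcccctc
Gm13341, chr2:22587475-22587534, minus strand: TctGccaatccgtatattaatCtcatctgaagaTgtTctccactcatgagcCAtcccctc
The chromosome 1 copy had 0 differences from mt-Co2 over these bases and the chromosome 2 copy had 7. The stretch was chosen for its many differences from the chromosome 2 copy. Over all 684 bases of mt-Co2 that copy was 95.9% identical. No value is given for the subunits encoded by these 6 genes, and the 7 mitochondrial members stand only for themselves.

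**Figure D1:**
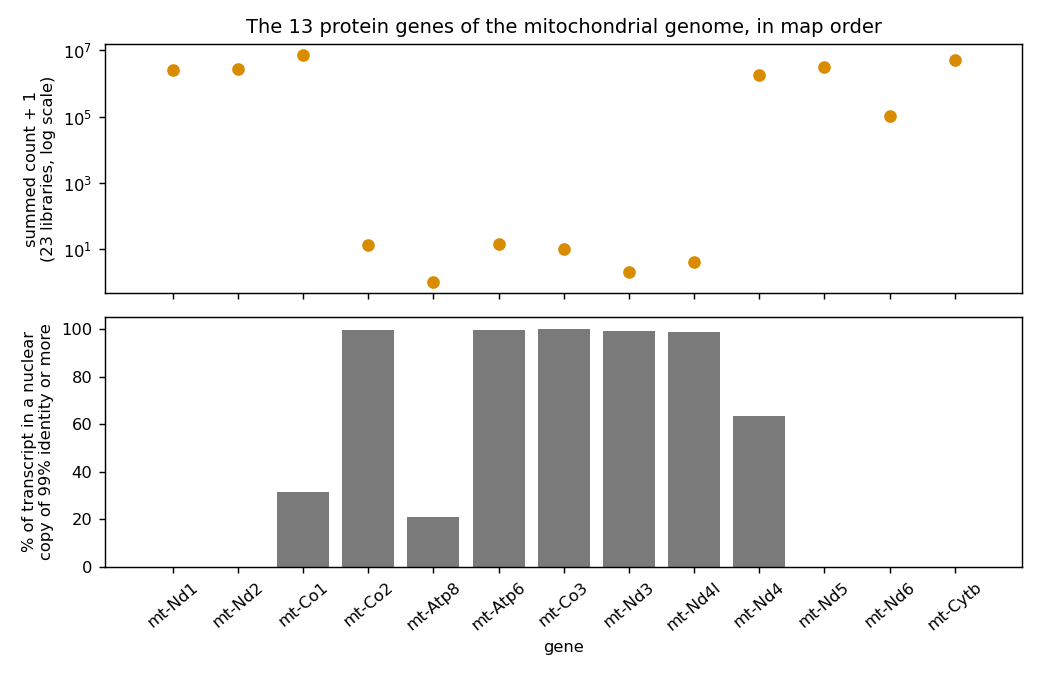
Summed count over the 23 libraries plus 1 (upper panel, log scale) for the 13 protein genes in map order. The lower panel gives the share of each transcript found in an annotated nuclear pseudogene transcript at 99% identity or more. The 6 neighbouring genes from mt-Co2 to mt-Nd4l have at most 13 counts each, and 5 of them lie almost wholly in such a transcript.

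Nuclear members also had gaps. Cox4i1, the common isoform of complex IV subunit 4, and Ndufa13, a complex I subunit, were listed at 0 in every library, where a count of 0 allows at most 0.0869 to 0.178 CPM (counts scaled to a common library size). Both are needed in every cell with a respiratory chain, so these entries are no measure of expression. Ndufa13 shares 29.98% of its exon bases with Tssk6 and Cox4i1 shares 9.94% with Emc8. Among the 86 nuclear members tested, 13 had copies at 95% identity or more over at least 30% of their longest transcript, and 3 (Atp5o, Ndufaf2 and Ndufb6) shared at least 20% of their exon bases with a neighbouring gene. Values for these members are uncertain to that extent.

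Library totals ran from 16876460 to 34527932 counts. The 23 libraries fell into 2 classes by the level of 178 annotated antisense genes, a property that the labels do not record and that was noticed in the data. A share was also taken over the counts of 320 antisense genes and the 312 abundant genes opposite them. Of these counts, the antisense genes took 1.082% to 1.54% in 11 low-antisense libraries and 1.70% to 2.18% in 12 high-antisense libraries. The low-antisense class held 1 Ct-Ct (Ct-Ct_33), 3 MetS-Ct, 2 Ct-MetS and all 5 MetS-MetS libraries, so MetS-MetS and this class cannot be told apart from the groups alone. Low minus high differences were taken within the 3 groups that hold both classes, on log2 counts scaled to library totals without TMM factors. Their median was −0.06 over all genes tested, of which 62.9% were lower in the low-antisense libraries. Over nuclear members it was −0.14, with 64 of 86 (74.4%) lower, and over mitochondrial members it was 0.31. Each result is therefore given from the fit on groups alone and, where MetS-MetS or a call is concerned, from a fit with the class as an added term, which was chosen after seeing the data. Hepatocyte markers summed to 121220 to 163330 CPM in every library. Markers of pancreas, heart and fat summed to at most 9.84 CPM. Muscle markers summed to 1015 CPM in MetS-MetS_110 and to at most 7.30 CPM elsewhere.

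Per kilobase of exon, 6 of the 7 mitochondrial members were more abundant than any nuclear member. Mean levels of the 7 ran from 316 CPM per kb for mt-Nd6 to 7596 CPM per kb for mt-Co1, with mt-Cytb, the complex III cytochrome b, at 7436 CPM per kb. The nuclear members ranged from 0.746 to 348 CPM per kb with a median of 55.6. Exon length was that of all annotated exons of a gene merged, such as 6443 bases for Atp5l. This lowers the values of nuclear genes with long alternative forms. Atp5a1 and Atp5b, the catalytic-head subunits of ATP synthase, led them at 348 CPM per kb each, and Cox6b1, the somatic isoform of a complex IV subunit, followed at 227 CPM per kb. Complex I assembly factors were far lower, with a median of 5.77 CPM per kb. Nuclear members took 0.965% to 1.30% of the counts of a library and the 7 mitochondrial members took 2.99% to 4.67%.

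Levels of the nuclear subunits varied together from library to library. Over the 23 libraries the median Pearson correlation of log2 levels between pairs of the 76 nuclear subunits was 0.51, and 0.68 once group and class means were removed, against −0.002 in both cases over all pairs of genes tested. The 8 assembly factors followed one another less, at 0.21 and 0.17. The 6 heavy-strand mitochondrial members correlated at 0.82 and 0.67 among themselves. Between the nuclear and these mitochondrial members the median was 0.16, and 0.43 after the means were removed. Pairs share library, depth and base composition, and these values are descriptions. The 4 genes outside the naming rule whose log2 level was most like the summed nuclear subunits over the 23 libraries were Cyc1 (r = 0.91), which encodes the cytochrome c1 subunit of complex III, Fth1 (r = 0.83), Rnf113a1 (r = 0.83) and Mrpl51 (r = 0.83).

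**Figure D2:**
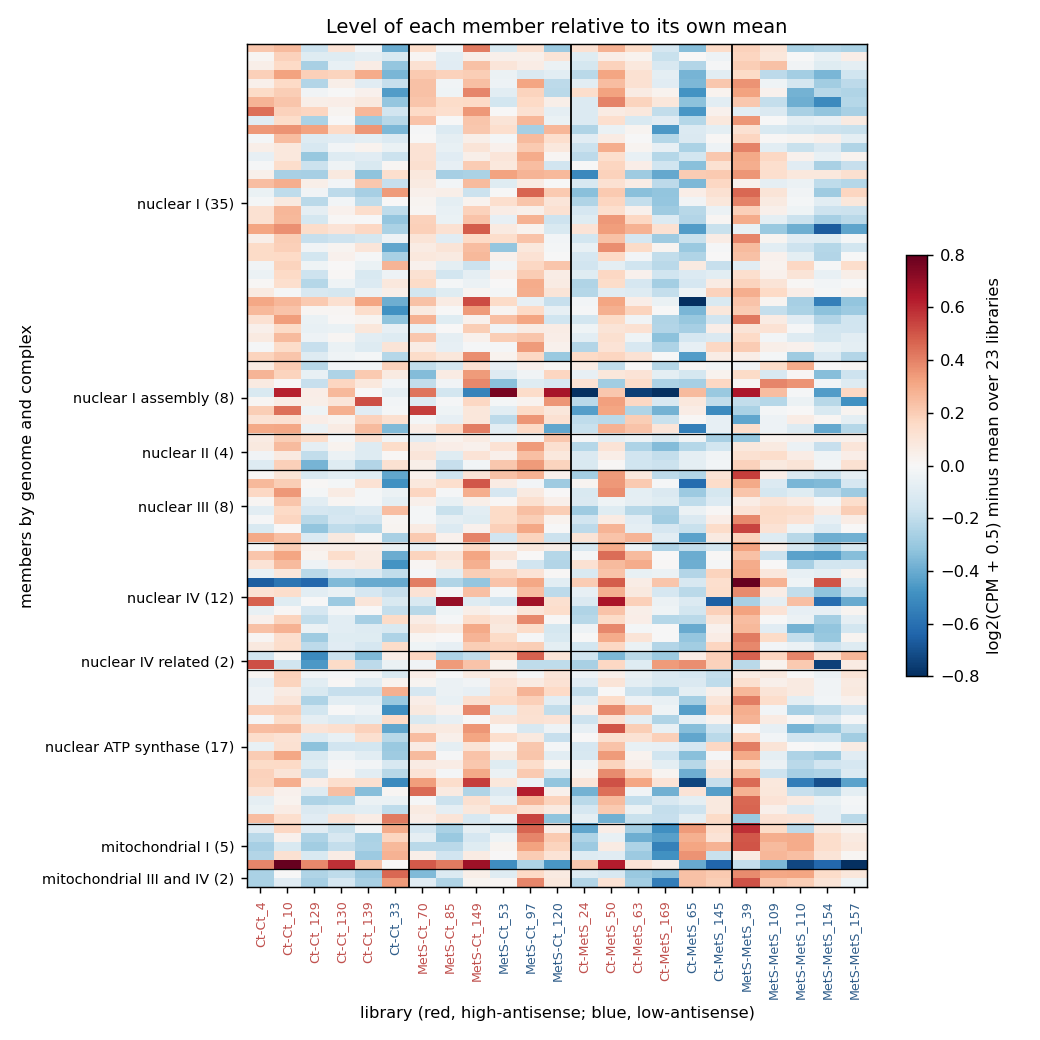
Level of each of the 93 members (rows, by genome and complex) in each of the 23 libraries (columns, by group, with the antisense class as the colour of the library name), as log2(CPM + 0.5) minus the member's mean. Nuclear rows share their column pattern, the row of mt-Nd6 is below its mean in the low-antisense libraries other than Ct-Ct_33, which lies at it, and the row of Cox6b2 is blue in the 6 Ct-Ct libraries.

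Promoter sequence gives the letters these members do and do not share. RefSeq promoter windows (GRCm38.p6, 250 bases before to 50 after the gene's start) were found for 71 of the 86 nuclear members. They were searched on both strands for short cores of factors known to regulate respiratory genes: GCATGCGC (NRF1), CCGGAAG (ETS family) and AAGATGGC (YY1). The NRF1 core was present in 12 of the 71 (16.9%, against 3.05% of 27025 genes with a window), the ETS core in 18 (25.4% against 9.93%) and the YY1 core in 10 (14.1% against 3.19%). At least 1 core was present in 33 (46.5% against 14.9%). A match describes letters only. The 250 bases before the start are shown for Ndufa6, which was called below and holds an NRF1 core, and for the paralogs Cox6b1 and Cox6b2, of which Cox6b2 was called. Capitals mark a core, and Cox6b2 has none in this window:
Ndufa6, chr15:82354292-82354541, minus strand: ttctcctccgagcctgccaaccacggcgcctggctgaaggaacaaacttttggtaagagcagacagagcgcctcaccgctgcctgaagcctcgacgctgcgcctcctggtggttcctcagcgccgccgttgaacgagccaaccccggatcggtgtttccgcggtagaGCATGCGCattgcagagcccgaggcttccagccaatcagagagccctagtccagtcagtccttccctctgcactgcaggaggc
Cox6b1, chr7:30626115-30626364, minus strand: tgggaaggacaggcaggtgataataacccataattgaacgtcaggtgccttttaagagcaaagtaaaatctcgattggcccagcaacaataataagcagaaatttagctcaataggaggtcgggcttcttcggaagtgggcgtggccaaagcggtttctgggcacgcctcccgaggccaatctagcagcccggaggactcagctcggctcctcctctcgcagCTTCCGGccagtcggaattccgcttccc
Cox6b2, chr7:4753095-4753344, minus strand: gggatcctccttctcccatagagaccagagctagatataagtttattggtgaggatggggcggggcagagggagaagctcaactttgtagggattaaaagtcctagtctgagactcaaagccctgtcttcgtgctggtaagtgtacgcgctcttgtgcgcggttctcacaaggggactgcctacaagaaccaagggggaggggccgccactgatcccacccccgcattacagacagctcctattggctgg

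Few respiratory chain genes passed the test for a difference between the groups. In edgeR's quasi-likelihood test with Benjamini-Hochberg adjustment over all 14466 genes, any difference among the 4 groups was called for 1 of 93 members, Cox6b2 (adjusted p = 0.020, with 2.51% of all genes tested called). Against Ct-Ct, MetS-Ct had 0 members called (0% of all genes), Ct-MetS had 1 (0.954%) and MetS-MetS had 5 (5.78%). At unadjusted p under 0.05 the MetS-Ct comparison had 4 of 93 members, beside 5.9% of all genes. DESeq2 called 0 members and 14 genes in all there, but gave no adjusted p for Cox6b2. With the antisense class as a term, any difference was called for 0 members (0.491% of all genes). At unadjusted p under 0.05 it had 5 of 93 members, beside 13.5% of all genes, and DESeq2 on groups alone called 6 members and 1066 genes in all. In the edgeR fit with the class as a term, the MetS-MetS comparison had 0 members called (0.0415% of all genes). It had 5 members and 12.7% of all genes at unadjusted p under 0.05. In the same fit Ct-MetS still had 1 member called (1.19%). The standard error of a nuclear member's log2 fold change was 0.11 at the median in each of the 3 comparisons. In bulk RNA, fewer cells of a type and less RNA per cell cannot be told apart.

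By complex, the nuclear members lay close to no change. Against Ct-Ct, the 86 nuclear log2 fold changes had a median of 0.08 for MetS-Ct (68 of 86 above 0), −0.03 for Ct-MetS (30 of 86) and −0.01 for MetS-MetS (40 of 86), where the median over all genes tested was −0.00, −0.01 and −0.00. In MetS-Ct the medians of complexes I, II, III, IV and ATP synthase all lay between 0.06 and 0.10. In Ct-MetS they lay between −0.10 (complex II) and 0.04 (complex IV). In MetS-MetS they lay between −0.02 (ATP synthase) and 0.10 (complex III). The 8 complex I assembly factors had medians of −0.05, −0.12 and −0.18 in MetS-Ct, Ct-MetS and MetS-MetS, with 2, 0 and 3 of 8 above 0 and 0 called. Summed over the 86 members, the level was 10968 ± 789 CPM (SD, n = 6) for Ct-Ct, 11476 ± 465 (n = 6) for MetS-Ct, 10597 ± 857 (n = 6) for Ct-MetS and 11162 ± 902 (n = 5) in MetS-MetS. The groups overlapped, and the highest and lowest single libraries were MetS-MetS_39 at 12612 and Ct-MetS_65 at 9739 CPM.

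The mitochondrial members showed a different pattern. Their median log2 fold change against Ct-Ct was 0.07 for MetS-Ct, −0.00 for Ct-MetS and 0.31 for MetS-MetS, where 6 of 7 were above 0. Their summed level was 35552 ± 5979 CPM (SD, n = 6) for Ct-Ct, 37357 ± 4800 (n = 6) for MetS-Ct, 35354 ± 6702 (n = 6) for Ct-MetS and 43061 ± 4361 (n = 5) in MetS-MetS, which is 1.21-fold the Ct-Ct mean. In the 5 MetS-MetS libraries it was 49505, 44314, 43186, 40236 and 38064 CPM. The low-antisense libraries of the other groups, from 35926 to 46856 CPM, overlapped these. The highest was Ct-Ct_33, and the means of the low-antisense libraries were 40422 CPM for MetS-Ct (3) and 42854 CPM for Ct-MetS (2). The high-antisense libraries had means of 33291, 34293 and 31604 CPM for Ct-Ct, MetS-Ct and Ct-MetS. With the class as a term the median of the mitochondrial members in MetS-MetS was −0.01, with 3 of 7 above 0.

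The balance of the genomes differed by class as well. The ratio of the 6 heavy-strand mitochondrial members to the 76 nuclear subunits was 3.29 ± 0.63 (SD, n = 6) for Ct-Ct, 3.29 ± 0.33 (n = 6) for MetS-Ct, 3.39 ± 0.74 (n = 6) for Ct-MetS and 3.92 ± 0.22 (n = 5) for MetS-MetS. It ran from 2.76 to 3.19 in the 12 high-antisense libraries and from 3.17 to 4.68 in the 11 low-antisense libraries. Among the latter, the MetS-MetS libraries (3.53 to 4.09) lay within the range of the others.

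**Figure D3:**
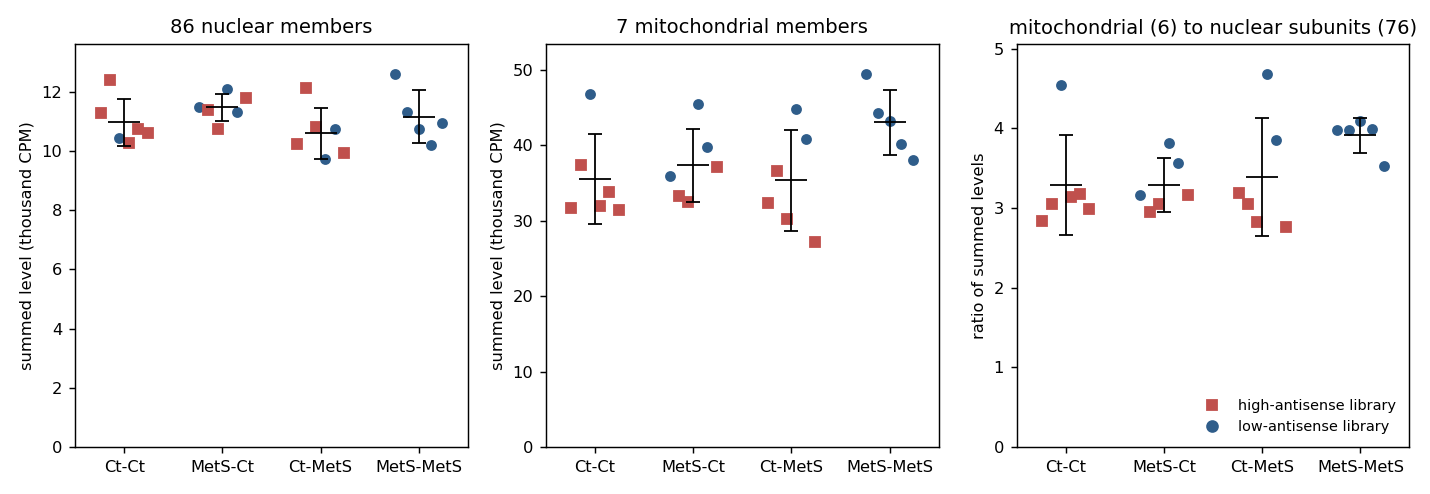
Summed level of the nuclear members and of the mitochondrial members (in 1000 CPM) and the ratio of heavy-strand mitochondrial to nuclear subunits, per library by group, with the mean and SD in black. Squares are high-antisense and circles low-antisense libraries; circles are the highest points of each group in the mitochondrial and ratio panels, although MetS-Ct_53 (35926 CPM) lies below the high-antisense MetS-Ct_149 (37086 CPM).

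Among single members, Cox6b2 stood apart. It encodes an isoform of a small complex IV subunit known mainly from testis, and it was the least abundant member tested at 0.746 CPM per kb, with 9 to 49 counts per library. In Ct-Ct its level was 0.303 to 0.494 CPM with a median of 0.403. In MetS-Ct it was 0.526 to 1.18 CPM with a median of 0.841. In Ct-MetS it was 0.660 to 1.27 CPM with a median of 0.928. The 5 MetS-MetS libraries had 2.20, 1.04, 0.742, 1.30 and 0.711 CPM. On the CPM scale all 6 Ct-Ct libraries lay below all 17 others. This held for Cox6b2 alone among the members and, in either direction, for 6 genes (0.0415%) of all tested. The gap was narrow, from 0.494 to 0.526 CPM, and depended on the scaling. Raw counts overlapped, with up to 14 in a Ct-Ct library and as few as 12 in a MetS-MetS library. The separation was read from the same values as the calls and is no separate test. The exposed groups overlapped one another. Summed markers of Kupffer cells, the liver's macrophages, were also low in Ct-Ct (296 to 394 CPM) beside the other groups (381 to 637 CPM), and their part in the Cox6b2 values was not tested.

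Cox6b2 rose in Ct-MetS by 1.23 ± 0.28 (log2 fold change ± SE, adjusted p = 0.034) and in MetS-MetS by 1.60 ± 0.30 (adjusted p = 0.0073). In MetS-Ct the difference was 1.07 ± 0.29 and did not pass (adjusted p = 0.64). Averaged over prenatal state, it rose with nursing exposure by 0.88 ± 0.20 (adjusted p = 0.016). With the class as a term, the fold changes were 1.23 ± 0.29 in Ct-MetS (adjusted p = 0.037), 1.57 ± 0.37 in MetS-MetS (adjusted p = 0.098) and 0.87 ± 0.21 for nursing exposure (adjusted p = 0.035). Within the high-antisense libraries the Ct-MetS difference was 1.40 ± 0.29 (adjusted p = 0.067), the highest of any setting. Over all alternative settings and class fits, single-library removals aside, the Ct-MetS difference ran from 0.743 to 1.40. That in MetS-MetS ran from 1.36 to 1.62, and that for nursing exposure from 0.563 to 0.894. Its somatic counterpart Cox6b1 differed by 0.17 ± 0.09, 0.10 ± 0.09 and 0.17 ± 0.09 in MetS-Ct, Ct-MetS and MetS-MetS, and none of these passed (adjusted p = 0.82, 0.69 and 0.27). No copy of Cox6b2 at 95% identity was found among the annotated transcripts. The Ct-MetS call for Cox6b2 was lost with no count minimum (adjusted p = 0.058), after thinning to the smallest library (adjusted p = 0.076), and without any 1 of Ct-Ct_4, Ct-Ct_10, Ct-Ct_129, Ct-Ct_139 or the Ct-MetS libraries other than Ct-MetS_65 (adjusted p up to 0.089).

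**Figure D4:**
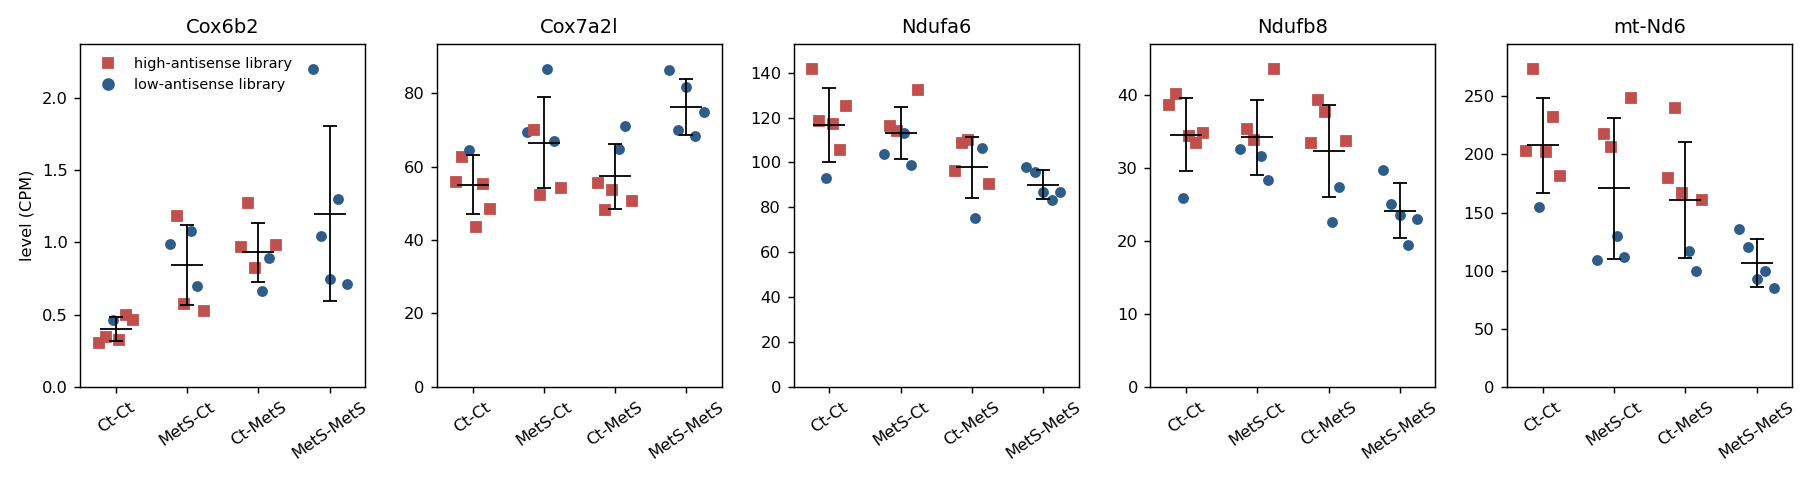
Level (CPM) of the 5 members called in any comparison, per library by group, with the mean and SD in black and the antisense class as the symbol. The 6 Ct-Ct libraries lie below all others for Cox6b2, whereas for Ndufb8 and mt-Nd6 the low-antisense libraries lie low in every group.

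In complex I, Ndufa6 and Ndufb8 fell in MetS-MetS. Ndufa6 is an accessory subunit that binds the mitochondrial acyl carrier protein. Its level was 93.3 to 142 CPM for Ct-Ct (median 118), 98.9 to 132 CPM for MetS-Ct (median 114) and 75.1 to 110 CPM for Ct-MetS (median 101.4), and it was 98.1, 95.7, 86.7, 83.5 and 86.8 CPM in MetS-MetS. The MetS-MetS libraries overlapped Ct-Ct only at Ct-Ct_33, the low-antisense library. Ndufa6 fell by 0.37 ± 0.11 in log2 units in MetS-MetS (adjusted p = 0.040) and by 0.29 ± 0.07 with nursing exposure (adjusted p = 0.027). With the class as a term the differences were −0.18 ± 0.11 (adjusted p = 0.54) and −0.21 ± 0.07 (adjusted p = 0.10).

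Ndufb8 is an accessory subunit of the membrane arm. It was at 25.8 to 40.1 CPM for Ct-Ct (median 34.5), 28.4 to 43.5 CPM for MetS-Ct (median 33.1) and 22.6 to 39.2 CPM for Ct-MetS (median 33.5). The MetS-MetS libraries had 29.6, 25.1, 23.5, 19.4 and 23.02 CPM. The lowest library of each other group was a low-antisense one. Ndufb8 fell by 0.52 ± 0.14 in log2 units in MetS-MetS (adjusted p = 0.033), and with the class as a term the difference was −0.16 ± 0.12 (adjusted p = 0.64).

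The third complex I member called was mt-Nd6, the only protein gene on the light strand of the mitochondrial genome. It was at 155 to 273 CPM for Ct-Ct (median 203), 109.4 to 248 CPM for MetS-Ct (median 168) and 99.4 to 240 CPM for Ct-MetS (median 164). The MetS-MetS libraries had 135, 121, 93.2, 100 and 85.1 CPM, all below every Ct-Ct library. It fell by 0.96 ± 0.23 in log2 units (adjusted p = 0.022). With the class as a term the difference was −0.30 ± 0.16 (adjusted p = 0.45). Across all groups mt-Nd6 averaged 114 CPM in the low-antisense and 209 CPM in the high-antisense libraries, opposite to the other 6 mitochondrial members. Its median correlation with those 6 was −0.51 over the 23 libraries and 0.75 once group and class means were removed.

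The 3 light-strand tRNA genes that passed the minimum had negative low minus high differences within groups as well, −2.65 (mt-Te), −1.30 (mt-Tq) and −0.86 (mt-Tp) on the log2 scale, beside −0.80 for mt-Nd6. The heavy-strand members differed by 0.20 to 0.38, while among the other heavy-strand transcripts mt-Tm was also lower, by −0.94. In MetS-MetS against Ct-Ct mt-Te, a tRNA gene with a mean of 13.1 counts, fell by 2.61 ± 0.74 in log2 units (adjusted p = 0.041), and with the class as a term the difference was −0.57 ± 0.63 (adjusted p = 0.78). Of the heavy-strand members, mt-Nd4, mt-Nd2, mt-Co1 and mt-Cytb were higher in MetS-MetS than Ct-Ct by 0.39 ± 0.15, 0.36 ± 0.14, 0.31 ± 0.14 and 0.31 ± 0.15, none of which passed (adjusted p = 0.11, 0.11, 0.17 and 0.21). For mt-Nd5 and mt-Nd1 the differences were 0.16 ± 0.13 and 0.13 ± 0.16 (adjusted p = 0.47 and 0.67). In the fit with the class they all lay between −0.18 and 0.04.

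**Figure D5:**
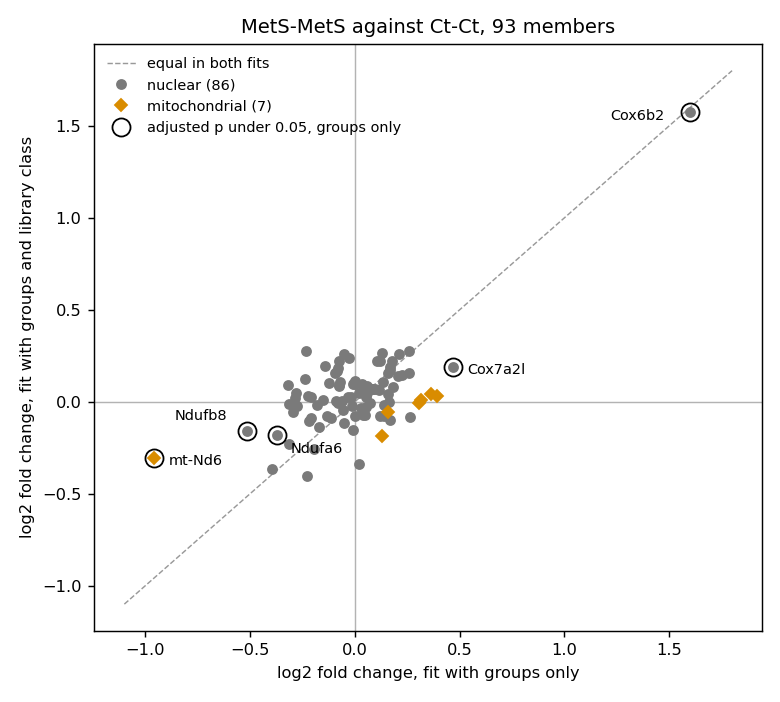
Log2 fold change of the 93 members in MetS-MetS against Ct-Ct, from the fit on groups alone (x axis) and from the fit with the antisense class as a term (y axis), with ringed points at adjusted p under 0.05 in the first fit. Cox6b2 lies on the line of equal values (1.60 and 1.57), while mt-Nd6, Ndufb8, Ndufa6, Cox7a2l and the heavy-strand mitochondrial members other than mt-Nd1 (0.13 and −0.18) lie nearer to 0 on the y axis.

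Cox7a2l encodes a factor that joins complexes III and IV into supercomplexes, and C57BL/6 mice are known to carry a shortened form of it. It was at 43.5 to 64.6 CPM for Ct-Ct (median 55.6), 52.2 to 86.5 CPM for MetS-Ct (median 68.1) and 48.2 to 71.0 CPM for Ct-MetS (median 54.6). The MetS-MetS libraries had 86.4, 70.1, 81.7, 68.3 and 74.9 CPM, all above every Ct-Ct library. It rose by 0.47 ± 0.13 in log2 units (adjusted p = 0.033), and with the class as a term the difference was 0.19 ± 0.12 (adjusted p = 0.55). Averaged over postnatal state, prenatal exposure gave 0.34 ± 0.09 and did not pass (adjusted p = 0.16), although DESeq2 called it (adjusted p = 0.034).

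These 4 calls in MetS-MetS, all but that of Cox6b2, lay near the threshold, and each was lost when any 1 of several libraries was left out. The Ndufa6 call was lost without any 1 of Ct-Ct_4, Ct-Ct_129, Ct-Ct_139, MetS-MetS_109, MetS-MetS_110, MetS-MetS_154 or MetS-MetS_157 (adjusted p up to 0.095). The Cox7a2l call was lost without Ct-Ct_4, Ct-Ct_129, Ct-Ct_130, Ct-Ct_139, MetS-MetS_39, MetS-MetS_110 or MetS-MetS_157 (up to 0.089). That of Ndufb8 was lost without any 1 of 8 libraries, Ct-Ct_4, Ct-Ct_10, Ct-Ct_129 and Ct-Ct_139 among Ct-Ct and all of MetS-MetS but MetS-MetS_39 (up to 0.078). That of mt-Nd6 was lost without Ct-Ct_129, MetS-MetS_110 or MetS-MetS_157 (up to 0.060). For nursing exposure, Ndufa6 was lost without MetS-MetS_154 (adjusted p = 0.055). Their log2 fold changes kept their sign throughout. With 1 library left out they ran in MetS-MetS from −0.43 to −0.31 for Ndufa6 and from 0.41 to 0.52 for Cox7a2l. For Ndufb8 they ran from −0.60 to −0.45 and for mt-Nd6 from −1.06 to −0.86.

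Complex II, which has no mitochondrial subunit, gave no call. Sdha, the flavoprotein that oxidises succinate, was at 541 ± 32.4 CPM (SD, n = 6) for Ct-Ct, 524 ± 38.3 (n = 6) for MetS-Ct, 481 ± 30.01 (n = 6) for Ct-MetS and 500 ± 48.9 (n = 5) in MetS-MetS. Sdhb, the iron-sulfur subunit, was at 150 to 192 CPM for Ct-Ct (median 167), 165 to 204 CPM for MetS-Ct (median 172) and 127 to 173 CPM for Ct-MetS (median 137), and at 171, 169.45, 156, 141 and 172 CPM in MetS-MetS. The Ct-MetS libraries were mostly low but overlapped Ct-Ct. The difference was −0.23 ± 0.08 in Ct-MetS (adjusted p = 0.18), and DESeq2 called Sdhb for nursing exposure (adjusted p = 0.045) where edgeR gave −0.18 ± 0.06 (adjusted p = 0.093). The membrane anchors Sdhc and Sdhd differed by −0.04 ± 0.07 and −0.02 ± 0.09 in Ct-MetS and by 0.12 ± 0.07 and 0.16 ± 0.10 in MetS-MetS, with adjusted p from 0.31 to 0.96. Summed complex II was 1077 ± 64 CPM for Ct-Ct, 1110 ± 68 for MetS-Ct, 985 ± 42 for Ct-MetS and 1069 ± 41 in MetS-MetS (SD, n = 6, 6, 6 and 5).

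Complex III and ATP synthase also gave no call. The core proteins Uqcrc1 and Uqcrc2 were the complex III members with the smallest p for any difference among groups (adjusted p = 0.27 and 0.21). Uqcrc2 was at 238 to 313 CPM for Ct-Ct (median 246), 232 to 312 CPM for MetS-Ct (median 276) and 216 to 265 CPM for Ct-MetS (median 236), and at 284, 293, 291, 275 and 302 CPM in MetS-MetS. The 5 MetS-MetS libraries lay above all 6 Ct-MetS libraries, by 0.28 ± 0.09 on the log2 scale (adjusted p = 0.21, and 0.11 ± 0.08 with the class as a term). Of ATP synthase, Atp5g3, an isoform of the membrane c-ring, and Atp5d, the delta subunit of the central stalk, had the smallest p (adjusted p = 0.30 and 0.37). In MetS-MetS against Ct-Ct they differed by 0.26 ± 0.10 and 0.21 ± 0.10 (adjusted p = 0.11 and 0.18).

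Comparisons between the exposed groups and across the design gave few calls. MetS-MetS against MetS-Ct had 0 members called (0.415% of all genes), with 6 of 93 members and 14.1% of all genes at unadjusted p under 0.05. MetS-MetS against Ct-MetS had 0 (0%), with 12 of 93 members and 15.6% of all genes at that level. DESeq2 called 0 members in both, and 136 and 73 genes in all. Ndufb8 had a difference of −0.50 ± 0.14 against MetS-Ct and of −0.42 ± 0.14 against Ct-MetS (adjusted p = 0.12 and 0.21). Nursing exposure had 2 (4.22%), Cox6b2 and Ndufa6, and 1 with the class as a term (2.31%), Cox6b2. Prenatal exposure had 0 (0.00691%), with 21 of 93 members and 16.3% of all genes at unadjusted p under 0.05. DESeq2 called 1 member, Cox7a2l, and 165 genes in all. Next to Cox7a2l, the smallest p were those of Cox6b2 at 0.72 ± 0.20 and Sdhc at 0.14 ± 0.05 (adjusted p = 0.16 and 0.19). The interaction of both exposures had 0 (0%), with 1 member, Ndufb8, and 5.44% of all genes at unadjusted p under 0.05, and 0 members and 4 genes in all by DESeq2. The nuclear median was −0.05 for nursing exposure (21 of 86 above 0) and 0.06 for prenatal exposure (55 of 86), and −0.04 and 0.08 with the class as a term (28 and 77 of 86). These comparisons share libraries with those against Ct-Ct.

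Ndufa8 and Ndufaf4 were picked out after their values were seen. Ndufa8, an accessory subunit of the intermembrane space, was next to passing in Ct-MetS at −0.36 ± 0.11 (adjusted p = 0.12). Its level was 66.7 to 110 CPM for Ct-Ct (median 108) and 62.3 to 87.1 CPM for Ct-MetS (median 80.4), and the groups overlapped only through Ct-Ct_33, the low-antisense Ct-Ct library. Ndufa7, another accessory subunit, was among the 3 members with the smallest p in MetS-Ct at 0.24 ± 0.09 (adjusted p = 0.82). The member with the widest spread within groups was Ndufaf4, a complex I assembly factor, with an SD of 0.46 in log2 level against a median of 0.18 for nuclear members. It ranged from 12.1 to 31.2 CPM for Ct-MetS and from 17.9 to 44.5 CPM for MetS-Ct, and no comparison called it.

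Tissue isoforms were scarce in these livers. Cox7a1, the heart and muscle isoform of subunit 7a, was at 1.07 to 3.501 CPM, and Ndufa4l2, a hypoxia-inducible relative of Ndufa4, at 0.903 to 2.86 CPM over all libraries, with no call for either. Cox4i2, the lung isoform of subunit 4, was at most 0.433 CPM, and Cox8c was listed at 0 throughout. The striated-muscle isoforms Cox6a2 and Cox8b were near 0 in all libraries but 1. In MetS-MetS_110, which carried the muscle markers above, they reached 2.72 and 2.54 CPM (44 and 41 counts), whereas no other library exceeded 0.192 CPM for either. Cox7a1 was at 2.41 CPM in that library, inside the range of the others. The part of the muscle RNA in other values of that library was not tested beyond leaving it out, which left 1 of the 5 members called in MetS-MetS against Ct-Ct, Cox6b2. All genes called then fell from 836 to 326, and leaving out Ct-Ct_129 left 219 and the same member. Leaving out any library also changes the group means and the spread. The part of the muscle RNA in the lost calls was not tested.

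Genes that build and supply the chain were compared from lists. In MetS-MetS against Ct-Ct, where 5.78% of all genes were called, the numbers called were 2 of 37 assembly factors (1 higher, 1 lower), 1 of 17 genes of cytochrome c and electron entry (lower), 2 of 26 genes of mitochondrial DNA copying and expression (higher), 1 of 13 genes of the TCA cycle (higher), 0 of 11 transcription regulators, 1 of 18 genes of the outer membrane, import and cristae (higher), 2 of 75 mitochondrial ribosomal proteins (higher), 1 of 79 cytosolic ribosomal proteins (higher) and 1 of 8 other transcripts of the mitochondrial genome (lower, mt-Te). Tfam, which packages and helps transcribe mitochondrial DNA, rose by 0.27 ± 0.08 (adjusted p = 0.049). Each of these lists had 0 called in that comparison once the class was a term. Their medians lay between −0.28 (the other mitochondrial transcripts) and 0.11 (import and cristae), beside −0.00 over all genes. Coq8a, a kinase-like protein of coenzyme Q synthesis, fell by 0.91 ± 0.25 (adjusted p = 0.039). In the other comparisons on groups alone edgeR called 0 genes of these lists, and DESeq2 called 0 to 3 of a list. With the class as a term, nursing exposure had 1, Fastkd1, at −0.45 ± 0.11 (adjusted p = 0.037).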

How the data were processed

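Polyadenylated RNA from 23 livers, 1 library per animal, was sequenced from a directional kit per the labels' protocols. The deposited table is named as normalized but was read as raw counts per gene: its values are whole numbers, and every whole number from 1 to 100 occurs in each of the 23 libraries. A scaling before deposit was not tested beyond this, and the CPM and the tests depend on there being none. The submitters' processing notes name FastQC, STAR, HTSeq and DESeq2. How multiply mapped reads, strand, annotation and build were handled was not given in the sources used here. Identifiers were matched to GENCODE symbols (49326 of 49585). Counts as deposited were fitted with edgeR 4.0.16 (R 4.3.3; TMM scaling, robust quasi-likelihood test, 1 mean per group over all 23 libraries) after dropping genes whose mean count was under 10, and p-values were adjusted by Benjamini-Hochberg over all genes tested. Postnatal and prenatal exposure were averaged over the other exposure. The threshold was an adjusted p of 0.05. The SE of an edgeR log2 fold change was derived from the test, as its absolute value divided by the square root of the F value. It is therefore approximate, above all for genes of few counts. Levels are TMM-scaled CPM, except that the low minus high differences within groups used CPM of library totals without TMM factors. The tests were checked on simulated counts.

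Alternatives were DESeq2 1.42.0, limma-voom (limma 3.58.1), other scalings, other count minimums, thinning to the smallest library, fits on the groups compared alone, and leaving out each library in turn. The fits by antisense class were chosen after seeing the data. Named genes were the members called in a comparison or, where none was called, the 3 with the smallest p, together with the 2 of each complex with the smallest p for any difference, the mitochondrial protein genes, complex II, tissue isoforms and the 4 genes most like the summed nuclear level. The members and the gene lists were chosen with earlier results of these data known.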

Additional observations from a re-analysis of the deposited data

Results flagged for a closer look

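Among 28 members and summed levels checked in 4 groups each, 11 of 112 groups held a library far from the rest of its group. For independent, normally spread values the rule gives this in about 1 in 20 groups. Members vary together and some are near 0, so the 11 cannot be judged against that rate. MetS-MetS_39 was highest of its group for Atp5g3 (513.8 CPM) and lowest for Sdha (412.9 CPM). MetS-MetS_110, the library with muscle markers, was highest for Cox6a2 (2.722 CPM) and Cox8b (2.536 CPM). Ct-Ct_10 was highest for Uqcrc1 (287.1 CPM) and was the only Ct-Ct library with counts for Cox8b (0.192 CPM). Ct-Ct_33, the sole low-antisense library of its group, was highest for mt-Co1 (1.592e+04 CPM), mt-Cytb (1.06e+04 CPM) and mt-Nd4 (3549 CPM). MetS-Ct_97, the animal taken a day later, was highest for Sdhb (203.9 CPM) and mt-Nd1 (5761 CPM).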

How the results depend on the processing

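No called value changed sign. The number of members called in Ct-MetS against Ct-Ct (1) was 0 with no count minimum, with a minimum mean of 50, after thinning, and within low-antisense or high-antisense libraries alone, and 0 to 2 with 1 library left out. In MetS-MetS against Ct-Ct (5) it was 3 with no minimum, 0 with the class as a term and 0 in low-antisense libraries, and 1 to 9 with 1 library left out: 9 without Ct-Ct_33, 1 without Ct-Ct_129, MetS-MetS_110 or MetS-MetS_157, 2 without Ct-Ct_4 or Ct-Ct_139, and 3 without MetS-MetS_109 or MetS-MetS_154. All genes called moved alike, from 836 to 1354 without Ct-Ct_33, 219 without Ct-Ct_129, 323 to 417 without Ct-Ct_4, Ct-Ct_139, MetS-MetS_110 or MetS-MetS_157, and 567 and 537 without MetS-MetS_109 and MetS-MetS_154. For nursing exposure (2) it was 5 by DESeq2, 1 with a minimum mean of 50, 1 with the class as a term, 0 in low-antisense libraries, and 1 to 6 with 1 library left out, with 6 without Ct-MetS_50, 5 without Ct-Ct_33, 4 without MetS-MetS_39 and 1 without MetS-MetS_154, where all genes called went from 611 to 923, 771, 694 and 349. For prenatal exposure (0) it was 1 by DESeq2. For any difference (1) it was 6 by DESeq2, 0 with a minimum mean of 50, after thinning, with the class as a term and in low-antisense libraries, and 0 to 4 with 1 library left out, with 4 without Ct-Ct_33, 2 without Ct-MetS_50 and 0 without Ct-Ct_4 or Ct-Ct_129. A minimum mean of 50 leaves Cox6b2 untested. The median of the mitochondrial members in MetS-MetS against Ct-Ct (0.31) was −0.0072 with the class as a term and −0.16 in low-antisense libraries. Against Ct-MetS (0.27) it was 0.024 and −0.017. In low-antisense libraries it was −0.17 in MetS-Ct (0.07) and −0.10 for prenatal exposure (0.16). The causes were not tested. No paired analysis was possible because the groups share no animal numbers. Members of few counts, Cox6b2 above all, are limited by depth.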
